A study of Mus musculus with 4 samples.

Results

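F3 (tissue factor), Thbd (thrombomodulin) and Thbs1 (thrombospondin 1) were each measured by 1 probe, 3 of the 9480 probes on a mouse cDNA microarray. They were taken as the probes annotated to a single gene among these names and read on all 4 arrays, out of 6566 probes with 1 gene, which cover 6025 genes. The genes were picked with their ratios on these arrays known, so their values are a description and carry no test. Each array held RNA from a mutant and from wild-type embryonic stem (ES) cells in the 2 colours Cy3 and Cy5. The fosBd/d line is homozygous for an allele of fosB that makes ΔFosB, the truncated form of the protein, and no other form. The other mutant is called fosB-null. In the wild-type cells fosB is unaltered. Per the series title all cells went without serum for 72 h and then received it for 4 h, and per the labels they grew without feeder cells. Per mutant there were 2 arrays in a dye swap, and replicate 1 carried the mutant in Cy3. The labels do not say whether those arrays used separate cultures or RNA extracts, so their spread may be technical only. Whether either mutant line is a single clone is not given in the sources used here.

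Tissue factor is the membrane receptor that binds the clotting factor VII and so starts coagulation. Thrombomodulin, also in the membrane, binds thrombin and turns it from a clotting enzyme into an activator of the anticoagulant protein C. Thrombospondin 1 is a secreted matrix glycoprotein first found in platelets, which binds the cell surface proteins CD36 and CD47 and activates latent TGF-β. In mouse embryos thrombomodulin marks the parietal endoderm, an extraembryonic layer that secretes a thick basement membrane. Serum induces F3 and Thbs1 in fibroblasts. FosB is a subunit of AP-1, a dimeric transcription factor that serum also induces.

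Values are log2 ratios of the 2 channels. A positive fosBd/d ratio is called likely higher in the mutant, because the dye names (Cy5 over Cy3) and a mutant-over-wild-type convention give that reading, whereas the labels' colour words give the opposite one. The direction of the fosB-null ratio was not settled. Replicate 1 of both mutants, each with the mutant in Cy3, correlated at r = -0.46 across probes, and replicate 2 of both at r = -0.37. The 2 arrays of the same mutant also correlated negatively as deposited, at r = -0.12 for fosBd/d and r = -0.32 for fosB-null, so over all probes the arrays behind each mean did not follow each other. Exact zeros carried a minus sign on fosBd/d replicate 1 and fosB-null replicate 2 and none on the others, which is the mark left by multiplication by -1. With that multiplication undone, all 6 pairs of arrays correlated positively, between 0.12 and 0.46. The dye names then make a negative fosB-null ratio higher in the mutant, and a mutant-over-wild-type convention makes it lower. Values of fosB-null are therefore given as deposited, with the turned sign beside them where F3, Thbd and Thbs1 are compared between the mutants. For the other genes and for the lists, signs of fosB-null ratios are as deposited, and all of them turn under the other reading. The SD over probes was 0.82 and 0.65 on the fosBd/d arrays and 0.44 and 0.54 on the fosB-null arrays. Ratios hold no levels, so fewer cells of a type and less RNA per cell cannot be told apart, and the presence of ES cell markers could not be checked.

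F3 lay near the top of both fosBd/d arrays. Its log2 ratio was 2.86 on replicate 1 and 3.02 on replicate 2, which are 7.26-fold and 8.10-fold. The arrays differed by 0.16, against a mean of 2.94 ± 0.11 (SD, n = 2 arrays). On replicate 1 it ranked 6 from the top among the 6566 probes with 1 gene, and on replicate 2 it ranked 4. On the fosB-null arrays F3 stood at -0.57 and -0.79, with a mean of -0.68 ± 0.16 (SD, n = 2 arrays) or 1.60-fold. As deposited, both fosB-null values were on the same side of 0 and well below both fosBd/d values. They ranked 431 and 168 from the bottom, less far out than in fosBd/d, and their mean ranked 66 from the bottom. The part of the F3 ratio that followed the dyes and not the mutant, in the direction taken as Cy5 over Cy3, was 0.08 on the fosBd/d pair and 0.11 on the fosB-null pair.

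The F3 promoter is shown because AP-1, the factor that contains FosB, has a short recognition sequence that can be looked for there. Of the 3 genes, F3 matched an entry of the RefSeq promoter table (GRCm38.p6), and Thbd and Thbs1 did not. The line gives the 250 bases before the start of F3, at chr3:121723287-121723536 on the plus strand, 5′ to 3′, with matches to the AP-1 motif in capitals.
F3 promoter: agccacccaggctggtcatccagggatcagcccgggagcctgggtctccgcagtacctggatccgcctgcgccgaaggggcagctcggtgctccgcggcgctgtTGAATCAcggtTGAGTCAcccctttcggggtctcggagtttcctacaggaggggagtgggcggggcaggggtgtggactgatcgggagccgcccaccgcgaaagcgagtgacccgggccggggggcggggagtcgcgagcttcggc
The window held 2 matches to TGANTCA, with 4 bases between them. TGAATCA lay 146 to 140 bases before the start and TGAGTCA 135 to 129 bases before it. Both read as a match on either strand. Of the 32851 promoter windows of this length in the table, 6.75% held at least 1 match and 0.338% held at least 2. The GC box GGGCGG, read on both strands, occurred 3 times in the F3 window, beside 32.7% of all windows with at least 1. No match was found to the cAMP response element TGACGTCA (1.55% of windows), to TATAAA (12.4%), to the Egr1 motif GCGNGGGCG (4.70%) or to the CArG box (1.47%). A match is a run of letters and does not show that a factor was bound in these cells.

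**Figure D1:**
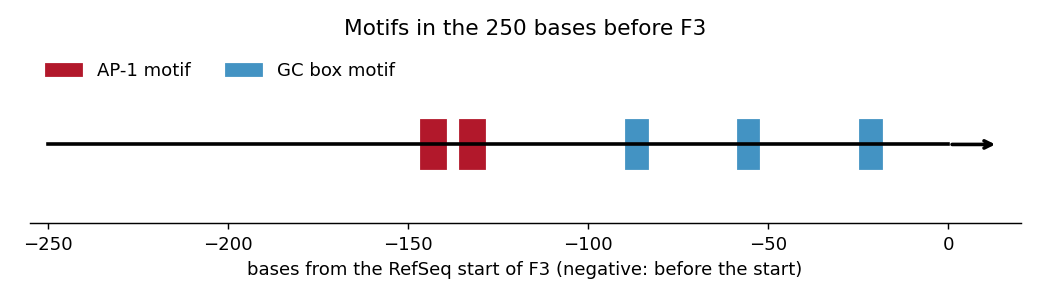
Motif matches along the 250 bases before the RefSeq start of F3, drawn to scale in bases from the start, with red blocks for AP-1 matches and blue blocks for GC boxes. The 2 AP-1 matches sit next to each other, 4 bases apart, and the 3 GC boxes lie between them and the start.

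Thbd was also high on both fosBd/d arrays but varied more between them than F3. Its log2 ratio was 3.28 on replicate 1 and 1.86 on replicate 2, which are 9.73-fold and 3.63-fold, with a mean of 2.57 ± 1.00 (SD, n = 2 arrays). It ranked 2 from the top on replicate 1 and 49 on replicate 2. On the fosB-null arrays it stood at -1.01 and -1.88, with a mean of -1.45 ± 0.62 (SD, n = 2 arrays) or 2.72-fold. There it ranked 55 from the bottom on replicate 1 and 5 on replicate 2. Thbd was thus at least 2-fold on every array, the same way on both arrays of each mutant. Its dye part was -0.71 on the fosBd/d pair and 0.44 on the fosB-null pair, larger in size than that of F3 in each.

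Thbs1 had smaller fosBd/d ratios. They were 1.40 on replicate 1 and 0.77 on replicate 2, or 2.64-fold and 1.71-fold, with a mean of 1.08 ± 0.44 (SD, n = 2 arrays). It ranked 142 and 461 from the top. On the fosB-null arrays it stood at -1.51 and -0.78, with a mean of -1.14 ± 0.52 (SD, n = 2 arrays) or 2.21-fold. It was the fifth lowest of the probes with 1 gene on fosB-null replicate 1, and ranked 181 from the bottom on replicate 2. In each mutant replicate 1 was over 2-fold and replicate 2 was not. Its dye part was similar in the 2 pairs, at -0.31 for fosBd/d and -0.37 for fosB-null.

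**Figure D2:**
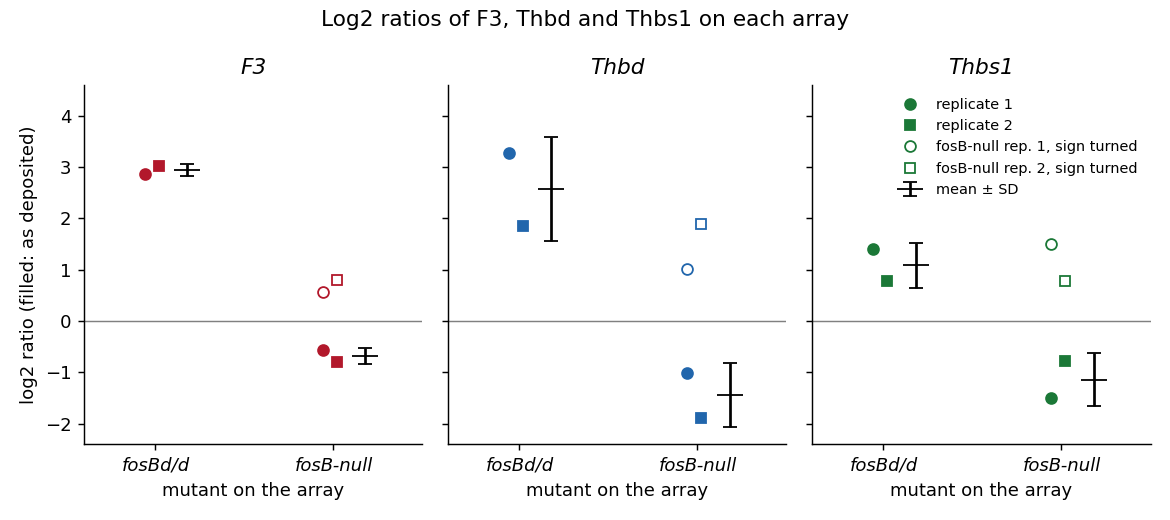
Log2 ratio (vertical axis) of F3, Thbd and Thbs1 on each array, fosBd/d to the left of fosB-null. Filled circles are replicate 1, filled squares replicate 2, bars the mean ± SD of 2 arrays, and open symbols the fosB-null values with the sign turned. As deposited the fosBd/d values lie above 0 and the fosB-null values below it, and with the sign turned the mutants overlap for Thbd and Thbs1 but not for F3.

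The 3 genes did not share 1 order of ratios. On the fosBd/d arrays F3 (mean 2.94) and Thbd (2.57) did not differ beyond their spread, since Thbd was above F3 by 0.42 on replicate 1 and F3 above Thbd by 1.16 on replicate 2. Thbs1 was below both on both arrays, with F3 above it by 1.46 and 2.25. On the fosB-null arrays as deposited, Thbd (-1.45) and Thbs1 (-1.14) changed places between replicates, and F3 (-0.68) was the least negative on replicate 1 and within 0.02 of Thbs1 on replicate 2. These are differences between ratios to wild type, not between RNA levels.

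Measured against all probes, 2-fold ratios in the same direction on both arrays were uncommon. On the positive side of fosBd/d they made up 1.52% of the probes with 1 gene, and F3 and Thbd were among them. On the negative side of fosB-null they made up 0.0761%, which is 5 probes, Thbd among them. Because the genes were chosen for such values, these shares describe where they lie and add no evidence. In limma over all 9480 probes, with an adjusted p under 0.05, 0% of probes passed in fosBd/d, in fosB-null and between the mutants. At an unadjusted p under 0.05 the share was 15.9% in fosBd/d, 6.1% in fosB-null and 13.9% between them.

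**Figure D3:**
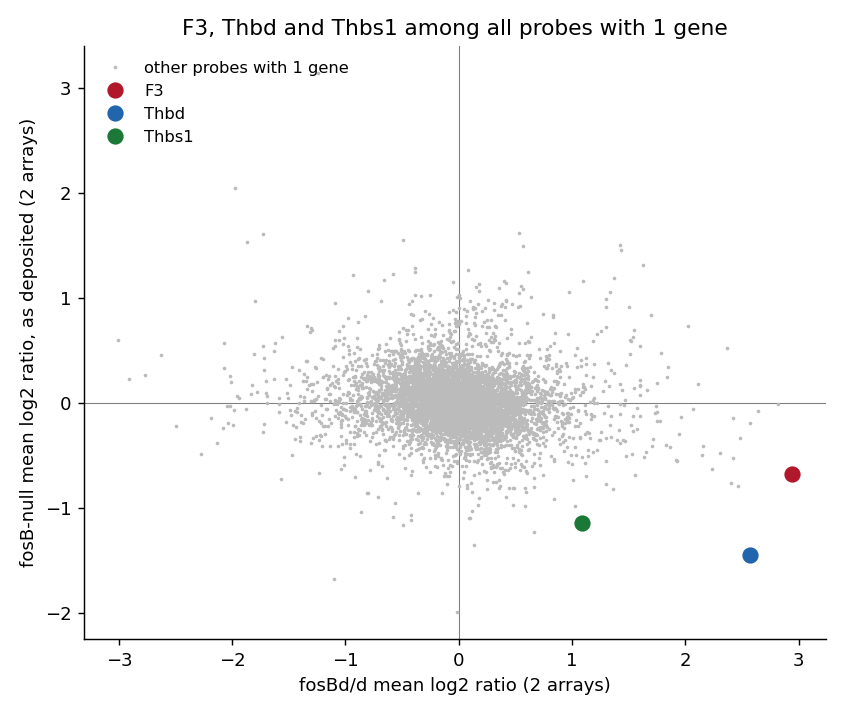
Mean log2 ratio over 2 arrays in fosBd/d (horizontal axis) and in fosB-null as deposited (vertical axis) for the 6566 probes with 1 gene in grey, with F3, Thbd and Thbs1 in colour. All 3 lie in the lower right, F3 farthest to the right at 2.94 and Thbd lowest of them at -1.45. Both axes use the same wild type, so the shape of the cloud is no result.

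The difference between the mutants depended on the open sign for each gene. Both comparisons share the wild type, so the values are set side by side. As deposited, fosBd/d minus fosB-null was 3.62 ± 0.14 for F3, 4.02 ± 0.83 for Thbd and 2.23 ± 0.48 for Thbs1 (SE over 2 arrays of each mutant). These ranked 2, 1 and 21 from the top of the probes with 1 gene. The lowest fosBd/d value was above the highest fosB-null value by 3.43 for F3, 2.87 for Thbd and 1.55 for Thbs1, beside 19.8% of all probes with 1 gene whose fosBd/d values both lay above both fosB-null values. With the fosB-null sign turned, the difference was 2.26 for F3, 1.13 for Thbd and -0.056 for Thbs1, ranking 18, 177 and 3530. F3 was then still separate, its lowest fosBd/d value 2.07 above its highest fosB-null value, beside 15.7% of all probes with 1 gene. Thbd overlapped with the sign turned, with 3.28 and 1.86 in fosBd/d and 1.01 and 1.88 in fosB-null. Thbs1 overlapped as well, with 1.40 and 0.77 in fosBd/d and 1.51 and 0.78 in fosB-null. Under that reading Thbs1 was on the same side of wild type by nearly the same amount in both mutants, whereas the F3 ratio to wild type was 4.78-fold larger in fosBd/d than in fosB-null. Read by the colour words, each of these turned differences has the opposite sign.

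The genes with the most similar values over the 4 arrays were found by Euclidean distance between log2 ratios, among probes with 1 gene and no exact 0. A turned sign leaves this distance as it is. Nearest to F3 were the collagen IV chain Col4a1 (distance 0.83), the transcription factor Nfia (0.98), the secreted chaperone Clu (1.02), the pepsinogen Pga5 (1.04) and Col4a2 (1.05). Their fosBd/d means lay between 2.23 and 2.81, and their fosB-null means between -0.63 and -0.01. Nearest to Thbd were the laminin chain Lamb1 (1.56), F3 (1.70), Nfia (1.74), Clu (1.79) and Sprr2a1 (1.86), an epithelial barrier protein. Thbd had a fosB-null mean of -1.45, and these 5 had means of -0.79 to -0.15. Nfia rests on 1 of its 3 probes, and the others had fosBd/d means of 0.45 and -0.62. Nearest to Thbs1 were Stra6 (0.67), which takes retinol into cells, Ankrd1 (0.71), a muscle and stress response protein, the homeobox gene Rhox6 (0.74), the mitochondrial creatine kinase Ckmt1 (0.85) and the actin-associated protein Pdlim3 (0.89). Thbs1 shared none of its nearest 5 with F3 or Thbd. Among the 5935 probes compared, F3 was in place 4457 by distance from Thbs1 and Thbd in place 3135. Counted the other way, Thbs1 was in place 115 from F3 and in place 32 from Thbd. The distance depends on the size of the ratios as well as on their signs, so such places need not match.

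**Figure D4:**
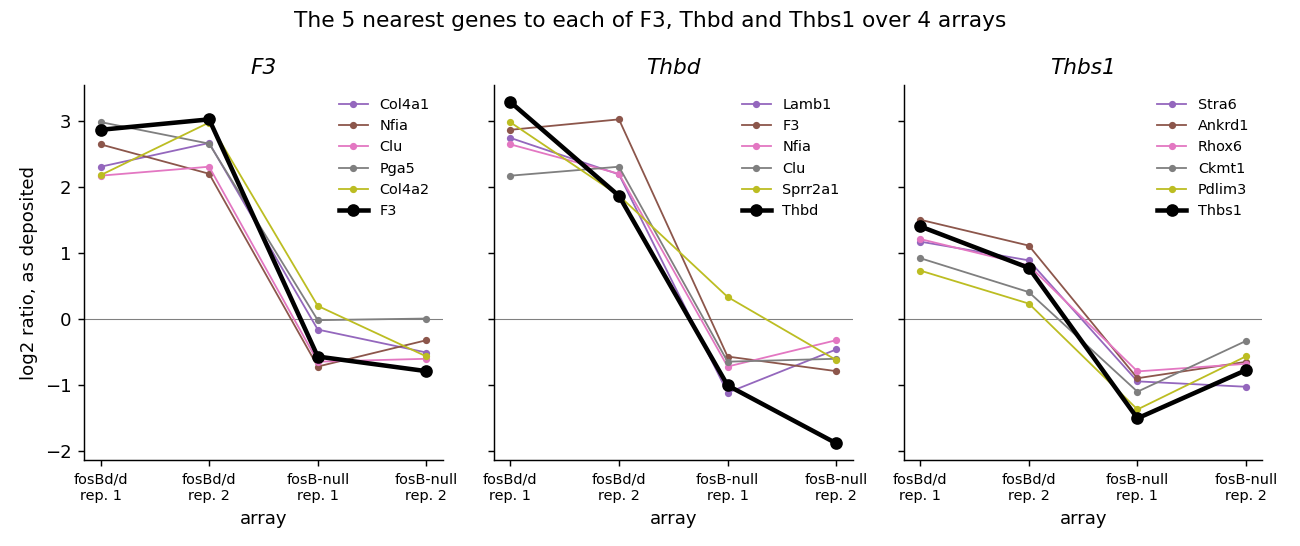
Log2 ratios as deposited (vertical axis) on the 4 arrays (horizontal axis) for F3, Thbd and Thbs1 in black and the 5 nearest genes to each in colour. The genes near F3 and Thbd run between 1.87 and 3.02 on the fosBd/d arrays, and those near Thbs1 lie lower, from 0.23 upward.

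The wider haemostasis system was read from 4 lists, which were written with earlier results of these data known and leave out F3, Thbd and Thbs1. They had 43 measured genes on 46 probes. Signs of fosB-null values for these lists are as deposited, so whether a gene moved the same way in both mutants was not settled. In limma, 0 of the 46 probes passed an adjusted p of 0.05 in either mutant or between them, with the smallest adjusted p at 0.297 in fosBd/d and 0.651 in fosB-null. At an unadjusted p under 0.05 there were 16 (34.8%) in fosBd/d and 5 (10.9%) in fosB-null, beside 17.3% and 6.15% of all probes with 1 gene. The median log2 ratio was 0.27 in fosBd/d and -0.04 in fosB-null, beside -0.02 and 0.00 over all probes with 1 gene. In fosBd/d 18 of the probes were positive and 5 negative on both arrays, beside 24.7% and 23.7% of all probes with 1 gene. In fosB-null 10 were positive and 14 negative on both, beside 19.4% and 21.7%. At least 2-fold on both fosBd/d arrays were 5 of the 46, or 10.9%, all positive, beside 1.52% of all probes with 1 gene on that side. None of the 46 was at least 2-fold on the negative side of both fosBd/d arrays (0.259% of all), or on either side of both fosB-null arrays (0.198% positive and 0.0761% negative).

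Among 9 anticoagulant proteins and thrombin receptors the median of the fosBd/d means was 1.02, although it was 0.66 on replicate 1 alone and 0.31 on replicate 2 alone. Of the 9, 6 were positive on both fosBd/d arrays, beside 24.7% of all probes with 1 gene. The fosB-null median was 0.08. Tfpi, the inhibitor that shuts off the complex of tissue factor with factor VII, stood at 1.39 and 1.57 in fosBd/d and at 0.51 and 0.22 in fosB-null. The protein C cofactor Pros1 had 1.08 and 1.07 in fosBd/d and 0.13 and 0.03 in fosB-null. Both were thus at least 2-fold on each fosBd/d array and smaller on each fosB-null array, with no limma call (adjusted p = 0.297 each in fosBd/d). The protein C receptor Procr varied between arrays, with 1.84 and 0.31 in fosBd/d and -0.66 and 0.29 in fosB-null. The thrombin receptor F2r had 0.64 and 1.40 in fosBd/d and 0.38 and -0.11 in fosB-null. Proc, the protein C zymogen that thrombin on thrombomodulin activates, lay on the other side of 0, at -1.88 and -0.22 in fosBd/d against 0.27 and -0.19 in fosB-null. F2rl2, a relative of F2r, had 0.58 and 0.00 in fosBd/d and -0.18 and -0.21 in fosB-null.

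The clotting factors had medians of 0.15 in fosBd/d and -0.07 in fosB-null over 13 probes of 12 genes. F2 (prothrombin) was the probe at least 2-fold on both arrays, with 1.07 and 1.26 in fosBd/d and 0.06 and -0.27 in fosB-null. F5, the cofactor of prothrombin cleavage, was negative in fosBd/d at -0.83 and -0.41, and stood at 0.20 and 0.03 in fosB-null. F10, the direct substrate of the tissue factor complex, was near 0 throughout, at -0.20 and -0.11 in fosBd/d and -0.06 and -0.15 in fosB-null. Adjusted p values in limma for fosBd/d were 0.297 for F2 and F5 and 0.431 for F10.

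For fibrinolysis the medians were 0.51 in fosBd/d and -0.25 in fosB-null over 9 probes of 8 genes. Anxa2, which assembles plasminogen activation at the cell surface, had 1.71 and 1.49 in fosBd/d and -0.11 and -0.15 in fosB-null, while its other probe had fosBd/d and fosB-null means of 0.51 and 0.15. Plaur, the urokinase receptor, had 1.18 and 1.66 in fosBd/d and 0.22 and -0.24 in fosB-null. The ligand of that receptor, Plau, did not follow it, at -0.03 and -0.28 in fosBd/d and -0.21 and -0.38 in fosB-null. Plat, the tissue plasminogen activator, disagreed between arrays, with 1.94 and -0.06 in fosBd/d and -0.23 and -0.48 in fosB-null.

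Thrombospondin relatives and binding proteins had medians of 0.07 in fosBd/d and -0.01 in fosB-null over 15 probes of 14 genes. The receptor Cd47 had -0.31 and 0.30 in fosBd/d and -0.19 and 0.25 in fosB-null. Cd36 had 0.48 and 0.00 in fosBd/d and 0.18 and 0.91 in fosB-null. The family members Thbs4 (-1.81 and -0.38 in fosBd/d, -0.34 and 0.39 in fosB-null) and Comp (-0.19 and 0.58 in fosBd/d, -0.10 and 0.08 in fosB-null) did not resemble Thbs1. Lrp1, the endocytic receptor that clears thrombospondin 1, had the signs of Thbs1 on every array, smaller in size on replicate 1 and larger on replicate 2 of each mutant, with 0.29 and 0.90 in fosBd/d and -0.43 and -0.91 in fosB-null. Its partner in thrombospondin binding, Calr, had 0.72 and 0.51 in fosBd/d and -0.32 and 0.13 in fosB-null. The integrin chains Itgav (1.58 and -0.65) and Itgb3 (0.00 and 1.86) disagreed between the fosBd/d arrays and had fosB-null means of 0.00 and -0.46.

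**Figure D5:**
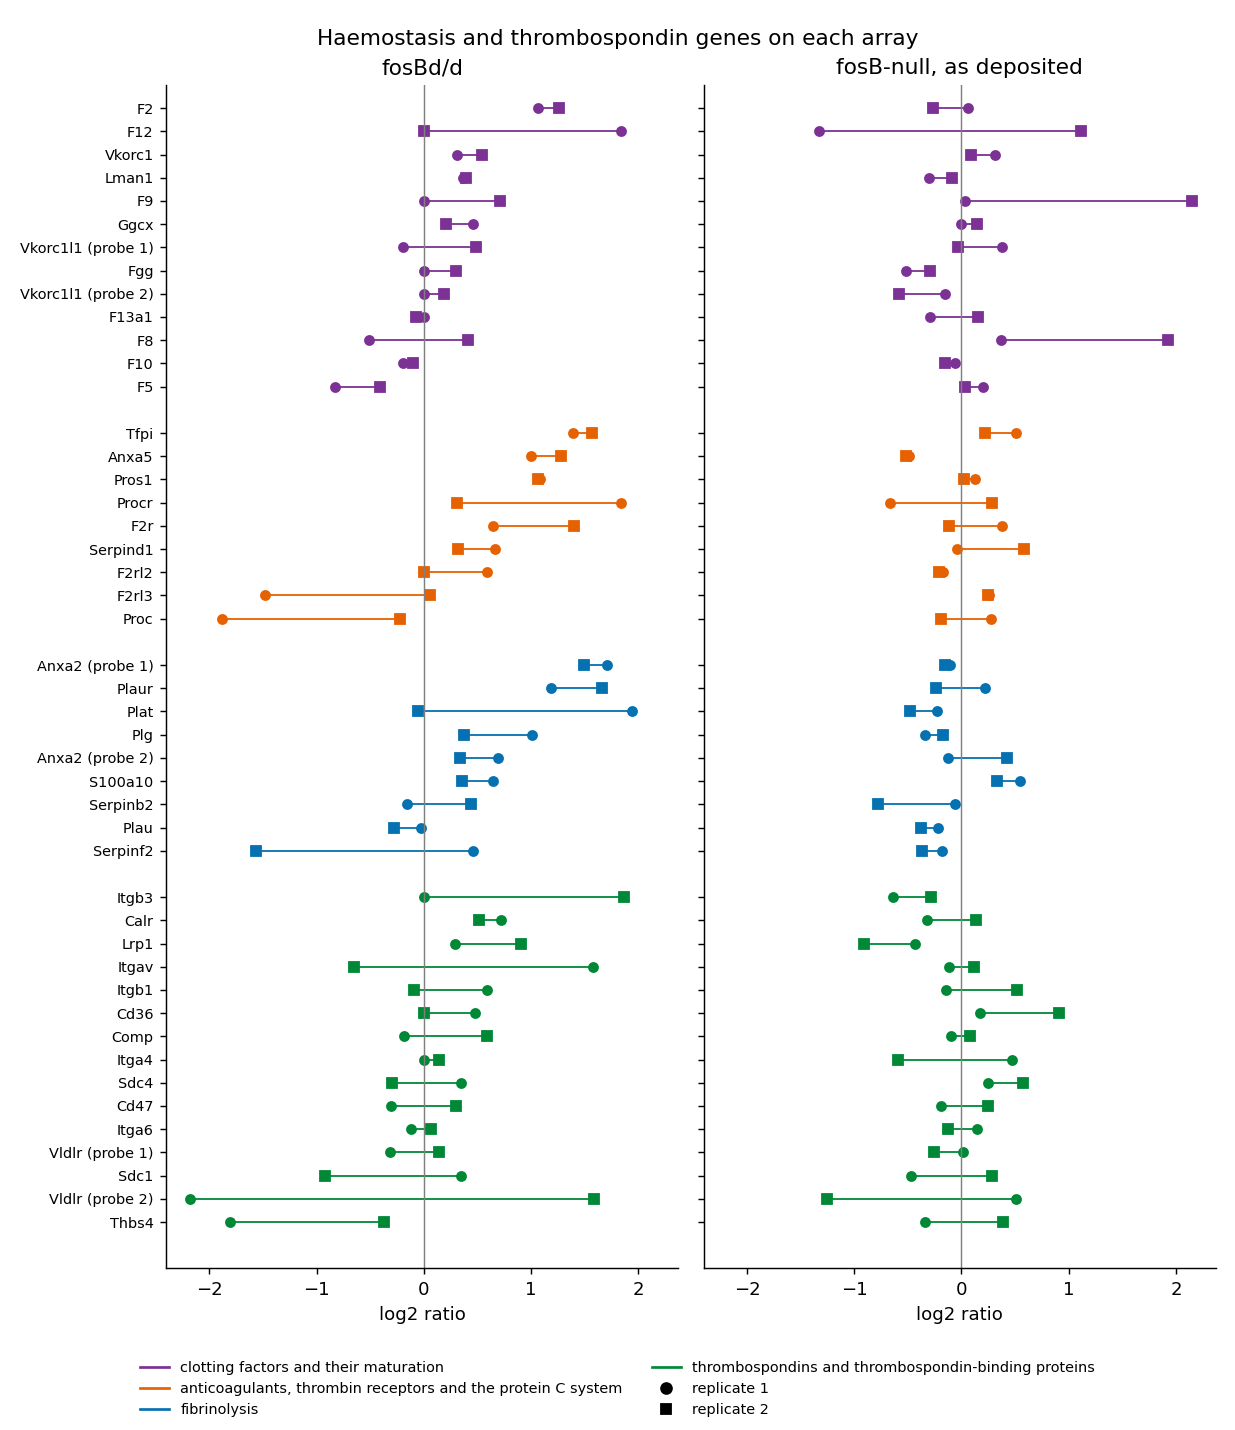
Log2 ratios (horizontal axis) of the 46 probes of the haemostasis and thrombospondin lists, fosBd/d on the left and fosB-null as deposited on the right, with circles for replicate 1, squares for replicate 2 and colours for the lists. Tfpi, Pros1, F2, Plaur and 1 probe of Anxa2 are past 1.00 on both fosBd/d arrays, and no probe is past that size the same way on both fosB-null arrays.

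Cell types that make these proteins were read from marker lists, also written with earlier results of these data known. Parietal endoderm markers were on the same side as F3 and Thbd in fosBd/d, with a median of 1.75 over 13 genes, means from 0.52 to 2.57, and 11 of the 13 at least 2-fold on both arrays (Col4a1, Col4a2, Lama1, Lamb1, Lamc1, Nid1, Gata6, Pdgfra, Pth1r, Snai1 and Krt8). Plat (1.94 and -0.06) and Krt19 (1.95 and -0.90), also on this list, changed sign between the fosBd/d arrays. In fosB-null as deposited the median of the 13 genes was -0.34. There 8 were negative and 0 positive on both arrays, beside 21.7% and 19.4% of all probes with 1 gene. With the fosB-null sign turned these 8 are positive, so whether the mutants differed in direction was not settled. The other fosB-null values of the marker lists are also as deposited. Visceral endoderm markers had medians of 0.56 in fosBd/d and 0.20 in fosB-null over 11 probes, and Lrp2, Amn, Cited1 and Ttr reached 2-fold on both fosBd/d arrays, as Amn and Cited1 did on the positive side of both fosB-null arrays. In fosBd/d 7 of the 11 visceral endoderm probes were positive on both arrays and 0 negative on both, beside 24.7% and 23.7% of all probes with 1 gene. Afp (1.05 and -0.29) and Apoa2 (0.11 and -0.20) changed sign between the fosBd/d arrays. Amn rests on 1 of its 2 probes. The other changed sign between the arrays of each mutant, with 0.68 and -0.04 in fosBd/d and 0.61 and -0.39 in fosB-null. Its means were 0.32 in fosBd/d and 0.11 in fosB-null. The part of these cell types in the F3 and Thbd ratios was not tested. Endothelial cells carry thrombomodulin in adults, and 0 of the 15 endothelial probes reached 2-fold on both arrays of either mutant, with medians of -0.02 in fosBd/d and -0.17 in fosB-null. The same count was 0 of 6 for platelets and megakaryocytes (medians 0.09 in fosBd/d and 0.04 in fosB-null), 0 of 7 for macrophages and monocytes (0.07 and 0.36) and 0 of 14 for feeder fibroblasts (0.09 and -0.10). For trophoblast it was 1 of 7, Plac1, in fosBd/d (medians 0.16 in fosBd/d and 0.18 in fosB-null). Since 1.52% of all probes with 1 gene were that high on both fosBd/d arrays, 0.259% that low, and 0.198% and 0.0761% in fosB-null, counts of 0 in lists of this size are near the background and say nothing particular about these cell types. Of the 16 ES cell markers listed, 6 were measured, with medians of -0.14 in fosBd/d and -0.28 in fosB-null. On both fosBd/d arrays Utf1 and Lin28a were positive and Tcl1 and Zfp42 negative, beside 24.7% and 23.7% of all probes with 1 gene. On both fosB-null arrays as deposited 5 of the 6 were negative and 0 positive, beside 21.7% and 19.4% of all probes with 1 gene.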

How the data were processed

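The values the authors deposited, a number for each probe on each array, were taken to be log10 channel ratios, which is how Agilent Feature Extraction, named in the submitters' processing notes, defines its log ratio. Its version, background correction, dye normalization and filters were not found in those notes, and every fold rests on that log base. Intensities were not analysed here, and the number of arrays (2 per mutant) limits the precision. Values were multiplied by the log2 of 10. Probe names came from a platform annotation table of 2007, updated by gene identifier through a RefSeq table (6496 of 6566 probes with 1 gene matched).

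limma 3.58.1 in R 4.3.3 was fitted to all 9480 probes on 4 arrays with terms for each mutant and for the dyes, which left 1 residual degree of freedom. The dye term followed the signs of the exact zeros. Two-sided p-values were adjusted by the Benjamini-Hochberg method. The fit was also run on simulated data, but recovery of changed probes was required only at a noise variance below the prior value fitted here (0.028). That run therefore does not show what the fit could call in these data. The alternatives were no dye term, the dye term coded by the mutant's dye, arrays scaled to the same spread, exact zeros left out, each array left out, the fosB-null sign turned and a 1.5-fold threshold.

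The genes and lists were chosen with earlier results of these data known. Genes were named if they were members, direct partners of them (20 of 29 measured), list members at least 2-fold on both arrays of a mutant, or among the 5 nearest by distance.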

Additional observations from a re-analysis of the deposited data

Results flagged for a closer look

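As deposited, F3, Thbd and Thbs1 were positive on both fosBd/d arrays and negative on both fosB-null arrays, with fosBd/d minus fosB-null at 3.62, 4.02 and 2.23. For these genes the difference was not tested, since they were chosen with their values known. Among the partners and list genes named, the same opposition of signs occurred in 1 probe of Anxa2 (1.73), Lrp1 (1.27), Col4a1 (2.82), Lamb1 (3.25), Lama1 (2.57), Snai1 (2.12), Pdgfra (1.74) and Nid1 (1.98), and the other way round in F5 (-0.73). Over all 121 probes of the lists, 20 (16.5%) were opposed the first way and 2 (1.65%, F5 and Adgre1) the other way, beside 7.87% and 6.69% of all probes with 1 gene, with the wild type shared by both comparisons. The lists were written with earlier results of these data known, so these shares are a description and add no evidence. The 9 partners and list genes did not pass limma for the difference (adjusted p = 0.357 each as deposited, and 0.524 to 0.810 with the fosB-null sign turned). Of the genes nearest to the 3 by distance, Nfia (2.94, 1 of its 3 probes), Clu (2.86), Stra6 (2.01), Ankrd1 (2.08), Rhox6 (1.75), Ckmt1 (1.38) and Pdlim3 (1.45) were also opposed the first way, which their choice by likeness favours, and their difference was not tested on its own. With that sign turned, each of these genes is on 1 side of 0 in both mutants, so the opposition rests on the direction of the deposited fosB-null ratios, which was not settled.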

How the results depend on the processing

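With the fosB-null sign turned, the fosB-null ratios became 0.68 for F3, 1.45 for Thbd and 1.14 for Thbs1, and fosBd/d minus fosB-null became 2.26, 1.13 and -0.056. Scaling the arrays to the same spread gave F3 2.63 in fosBd/d and a difference of 3.39, each moved by more than its error. The other values of the 3 genes moved by less than their own errors. Among them, Thbd in fosBd/d went from 2.57 to 2.24, with an SD of 1.00. Thbd in fosBd/d is 1.86 without replicate 1 and 3.28 without replicate 2, which are 3.63-fold and 9.73-fold against 5.94-fold with both arrays, and its difference is then 3.31 and 4.73. With 2 arrays per mutant, leaving out an array leaves the value of the other, so this is no check of stability. At 1.5-fold on both arrays, 445 probes qualified in fosBd/d and 103 in fosB-null, against 150 and 23 at 2-fold. limma called 0 probes under every alternative in each comparison. The counts at an unadjusted p under 0.05 depended on the dye term, with 1503 in fosBd/d and 578 in fosB-null as fitted, 709 and 179 without it, and 270 and 47 when it was coded by the mutant's dye alone, an alternative chosen after seeing the data. The dye term was dropped wherever an array was left out. The labels carry no replicate numbers. The numbers used here run with the dye of the mutant, so the last of these fits, with 153 probes between the mutants, is also the fit with the number as a block, and whether they pair the arrays is not known. With 1 probe per gene, averaging probes changes nothing for F3, Thbd and Thbs1. With 2 arrays per mutant and no intensities, signal over background behind these ratios is unknown.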
